A study of Mus musculus with 8 samples.

Results

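The LIN28 proteins, the HMGA chromatin proteins, the IGF2BP mRNA-binding proteins and TRIM71 belong to a circuit that marks early development, and their 8 genes were followed here in embryonic mouse brains. The genes were *Lin28a*, *Lin28b*, *Hmga1*, *Hmga2*, *Igf2bp1*, *Igf2bp2*, *Igf2bp3* and *Trim71*. They were taken by name from a table of 33971 genes, and the list was selected on what is known of the circuit and on their CDD and ND read counts in these same brains. Values that compare the diets in these genes are therefore descriptions and carry no test. The brains came from wild-type (WT) embryos of WT females mated with WT males. Dams received a choline-deficient diet (CDD, 4 brains) or normal chow diet (ND, 4 brains) from the day of mating, and whole brains were taken at E14.5. The numbers of dams and litters are not stated, so the spread between brains of a diet may not include that between litters. All embryos shared the WT genotype, and the labels name no variable other than the diet of the dam. Diet and litter cannot be told apart. Polyadenylated RNA was sequenced in bulk, and levels are given as CPM, the read count relative to the scaled size of the library, or as FPKM, which is also divided by gene length and serves to compare genes.

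LIN28A and LIN28B bind precursors of the let-7 microRNAs and block their maturation. Mature let-7 in turn represses mRNAs that carry matching sites in the 3′ UTR, among them those of the LIN28, HMGA2, IGF2BP and TRIM71 proteins, so that high LIN28 and high let-7 tend to exclude each other. In the developing brain, *Lin28a*, *Hmga2* and *Igf2bp1* are known for high expression in early progenitors that declines as let-7 accumulates, and miR-125 is a further microRNA that targets *Lin28* mRNAs.

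The letters shared between these microRNAs and the mRNAs are shown first, as a description, because the known circuit runs through such matches. Among the RefSeq (GRCm38.p6) entries used, 9 mature microRNAs from 11 loci share the let-7 seed GAGGUAG, and 2 mature miR-125 microRNAs from 3 loci share the seed CCCUGAG. The let-7 locus of the cluster named further on with *Mir100hg* is not among these entries, so the count of loci may not be complete. The mature sequences of 3 let-7 microRNAs, of miR-98 and of both miR-125 microRNAs are printed 5′ to 3′ with the seed (bases 2 to 8) in capitals.
let-7a-5p: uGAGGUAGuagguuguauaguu
let-7b-5p: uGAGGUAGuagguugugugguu
let-7i-5p: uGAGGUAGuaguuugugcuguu
miR-98-5p: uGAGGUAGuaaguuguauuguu
miR-125a-5p: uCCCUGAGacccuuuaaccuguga
miR-125b-5p: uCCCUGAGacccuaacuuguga

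The reverse complement of the let-7 seed, CTACCTC, was searched in the 3′ UTR of 1 GENCODE M21 transcript per gene, on the strand of the mRNA. All 8 genes held it at least once, with 21 matches in all, and in 7 genes at least 1 match was followed by an A. Among other tested protein-coding genes, 1550 of 14901 (10.4%) held a match, or 16.5% of the 7399 whose 3′ UTR was at least as long as the shortest of the 8 (1183 bases, *Hmga1*). *Lin28b*, *Hmga2*, *Igf2bp1* and *Trim71* each held 4 matches, a number reached by 7 (0.047%) of the other genes, or 0.0946% of the same 7399. The 3′ UTRs of these 4 genes ran from 3014 to 6337 bases. The 8 genes were chosen on what is known of the let-7 circuit, so matches above the share of other genes follow from the choice. *Lin28a* held 2, and *Hmga1*, *Igf2bp2* and *Igf2bp3* held 1 each. The miR-125 match CTCAGGG was in the 3′ UTRs of *Lin28a*, *Lin28b*, *Igf2bp3* and *Trim71*, beside 15.3% of tested genes. Their 3′ UTRs ran from 2119 to 5512 bases. That share covers all lengths (median 1170 bases) and was not limited by length for this match. Such a match is a description of letters and does not show that a microRNA binds there. The match nearest the stop codon of each gene is printed with the bases before it, 5′ to 3′ along the mRNA, with the seed match in capitals.
Lin28a, chr4:134005189-134005211, minus strand: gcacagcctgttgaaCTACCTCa
Lin28b, chr10:45381022-45381044, minus strand: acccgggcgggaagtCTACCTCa
Trim71, chr9:114512472-114512494, minus strand: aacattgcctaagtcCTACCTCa
Hmga1, chr17:27563277-27563299, plus strand: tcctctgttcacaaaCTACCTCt
Hmga2, chr10:120364224-120364246, minus strand: gccgacattcaatttCTACCTCa
Igf2bp1, chr11:95961778-95961800, minus strand: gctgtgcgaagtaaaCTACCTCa
Igf2bp2, chr16:22059473-22059495, minus strand: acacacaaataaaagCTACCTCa
Igf2bp3, chr6:49086787-49086809, minus strand: tgcatttttactcaaCTACCTCa

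These 8 positions are of the GRCm38 build and lie in annotated 3′ UTR exons. The gene spans given further on are those of the deposited table, whose build is not named and in which several of these positions fall outside the gene, so the coordinates of the sites and of the spans cannot be compared. The first *Hmga2* match began 58 bases after the stop codon and the first *Lin28b* match 36 bases after it. The single matches of *Igf2bp3*, *Igf2bp2* and *Hmga1* began 548, 1313 and 801 bases after the stop codon. In *Trim71* all 4 matches were followed by an A, whereas in *Hmga2* and *Lin28b* only the first was.

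**Figure D1:**
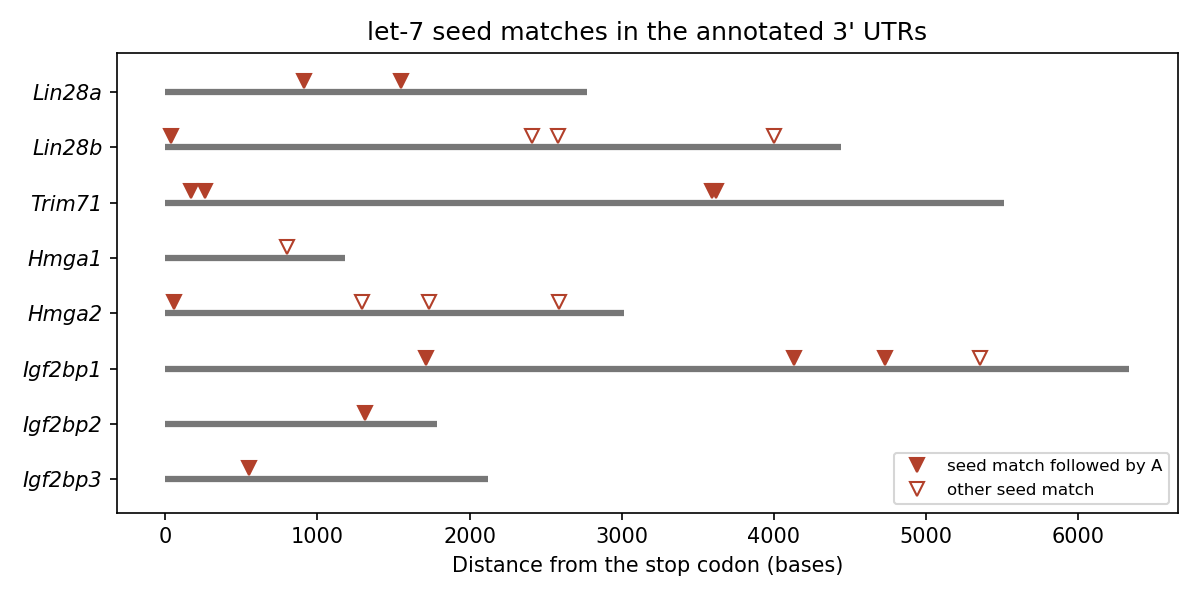
Annotated 3′ UTRs of the 8 genes as grey lines, drawn to scale as distance from the stop codon in bases, with let-7 seed matches as triangles, filled where an A follows. The 3′ UTRs run from 1183 bases (*Hmga1*) to 6337 bases (*Igf2bp1*), and each holds at least 1 match.

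Libraries held between 31770217 and 43121170 counted reads, and all 8 genes passed the filter on low counts. Brains of the same diet differed by more than sampling noise, the chi-square divided by its degrees of freedom being 3.79 to 23.0. The 11 progenitor markers and the 10 neuronal markers were detected in every brain, as the label of brain requires. CDD replicate 2 stood apart with 94.0 CPM of caudal Hox genes, which mark hindbrain and spinal cord, beside at most 0.088 CPM in the ND brains. ND replicate 3 had the most erythroid RNA, 2995 CPM summed over 10 markers, while the lowest ND brain had 827 CPM. Log2 fold changes without either brain are given with the genes below.

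In edgeR's quasi-likelihood test across 19367 genes, 4 of the 8 genes were past an adjusted p-value of 0.05 (Benjamini-Hochberg), all of them higher in CDD brains, beside 8.83% of all genes in either direction and 4.24% in the higher direction. The genes were *Hmga1*, *Hmga2*, *Igf2bp2* and *Igf2bp3*. The same 4 were higher in each CDD brain than in any ND brain, as were 7.65% of all genes. In the other 4 the diets overlapped. The list was chosen with this comparison known, so nothing is read from these counts. The median log2 fold change of CDD over ND was 0.25 for the 8 genes and -0.0038 for all genes.

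*Lin28a* (ENSMUSG00000050966, chromosome 4, 133730641 to 133746152), which encodes one of the blockers of let-7 maturation, was close to the limit of detection at this stage. The gene had 23, 20, 24 and 18 reads in the CDD brains and 12, 15, 20 and 10 reads in the ND brains. ND replicate 3 lay among the CDD brains and the other ND brains lay below all of them. The mean was 0.594 ± 0.0688 CPM under CDD and 0.422 ± 0.128 CPM under ND (SD, n = 4). The log2 fold change of 0.49 had a standard error of 0.30, and at 10 to 24 reads per brain it was not resolved. Whichever brain was left out, it stayed between 0.34 (without ND replicate 4) and 0.68 (without ND replicate 3), and it was 0.50 without CDD replicate 2.

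*Lin28b* (ENSMUSG00000063804, chromosome 10, 45252716 to 45362491), the paralog of *Lin28a*, had 796 to 1068 reads per brain. Its level was 29.0, 26.9, 24.8 and 24.8 CPM in the CDD brains and 25.3, 24.9, 25.1 and 26.6 CPM in the ND brains. The 2 lowest CDD brains lay below every ND brain and the 2 highest lay above every ND brain. Its log2 fold change of 0.05 had a standard error of 0.063 and stayed between 0.01 and 0.08 whichever brain was left out, with 0.04 without CDD replicate 2 and 0.04 without ND replicate 3.

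*Trim71* (ENSMUSG00000079259, chromosome 9, 114336201 to 114393437) encodes an RNA-binding ubiquitin ligase that is itself a classical let-7 target. It had 45, 40, 38 and 32 reads in the CDD brains and 40, 44, 36 and 36 reads in the ND brains. The diets overlapped, with means of 1.09 ± 0.212 CPM under CDD and 1.16 ± 0.157 CPM under ND (SD, n = 4). The log2 fold change was -0.09 with a standard error of 0.21, and its sign was not settled: it was 0.01 without CDD replicate 3, 0.0018 without ND replicate 2 and -0.21 without CDD replicate 1. Without CDD replicate 2 and without ND replicate 3 it was -0.12 and -0.14.

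*Hmga2* (ENSMUSG00000056758, chromosome 10, 120197180 to 120312374), an AT-hook protein that bends DNA and is a prominent let-7 target, had the largest difference of the 8 genes. Its reads numbered 455, 476, 479 and 489 in the CDD brains and 288, 280, 246 and 263 in the ND brains. Relative to library size this was 13.7, 13.8, 11.1 and 14.7 CPM in CDD and 8.43, 8.75, 7.11 and 7.62 CPM in ND brains. The lowest CDD brain, replicate 3, still lay above the highest ND brain. The means were 13.4 ± 1.55 and 7.98 ± 0.747 CPM (SD, n = 4), a 1.67-fold difference with a log2 fold change of 0.74 and a standard error of 0.097. Whichever brain was left out, the difference stayed between 0.69 and 0.82 on the log2 scale. Without CDD replicate 2 it was 0.72, and without ND replicate 3 it was 0.69.

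*Hmga1* (ENSMUSG00000046711, chromosome 17, 27775471 to 27782648), the more widely expressed AT-hook gene, differed much less. It was at 88.2, 92.4, 86.2 and 90.9 CPM in the CDD brains and at 83.6, 81.9, 76.7 and 80.1 CPM in the ND brains. All CDD brains lay above all ND brains, but the gap between the nearest brains was small. On the log2 scale the difference was 0.15 with a standard error of 0.043, or 1.11-fold, and its direction turned when levels were taken relative to progenitor markers (ratio 0.906, described below with the other genes). With 1 brain left out in turn it was past the threshold in 2 of 8 fits, those without CDD replicate 3 or CDD replicate 4, and was lost without CDD replicate 1, CDD replicate 2 or any single ND brain. The difference was 0.14 on the log2 scale without CDD replicate 2 and 0.13 without ND replicate 3. *Hmga1b*, a near copy listed as a gene of its own with 222 to 359 reads per brain, had a log2 fold change of 0.11 with a standard error of 0.10. How reads shared by the copies were assigned is not stated.

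*Igf2bp1* (ENSMUSG00000013415, chromosome 11, 95847989 to 95896766), the first of 3 genes for proteins that bind and stabilize mRNAs, was at 74.8, 67.5, 70.0 and 82.6 CPM in the CDD brains. It was at 65.4, 70.7, 57.9 and 61.6 CPM in the ND brains. ND replicate 2 lay above CDD replicates 2 and 3, so the diets overlapped. Its log2 fold change was 0.21 with a standard error of 0.067. It was past the threshold only without CDD replicate 2 (0.25) or ND replicate 2, with DESeq2, or without the filter on low counts. Without ND replicate 3 it was 0.16.

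*Igf2bp2* (ENSMUSG00000033581, chromosome 16, 21877759 to 21982049) was at 79.8, 70.6, 74.9 and 83.9 CPM in the CDD brains and at 66.3, 66.2, 57.3 and 61.6 CPM in the ND brains. The diets did not overlap. A log2 fold change of 0.30 (standard error 0.057) was measured, with a range of 0.26 to 0.34 over the fits that leave out a brain. The lowest value came without CDD replicate 4 (0.255) and the highest without CDD replicate 2 (0.34), and without ND replicate 3 it was 0.256.

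*Igf2bp3* (ENSMUSG00000029814, chromosome 6, 49062157 to 49191891) was at 44.3, 44.9, 43.4 and 51.1 CPM in the CDD brains and at 32.9, 36.8, 33.1 and 36.4 CPM in the ND brains. CDD replicate 4 was the highest and the 4 ND brains lay close together. Its log2 fold change was 0.40 (standard error 0.062), with a range of 0.34 to 0.43 over the same fits, 0.41 without CDD replicate 2 and 0.38 without ND replicate 3. In *Hmga2*, *Igf2bp2* and *Igf2bp3* the threshold was passed in 8 of 8 fits with a brain left out.

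**Figure D2:**
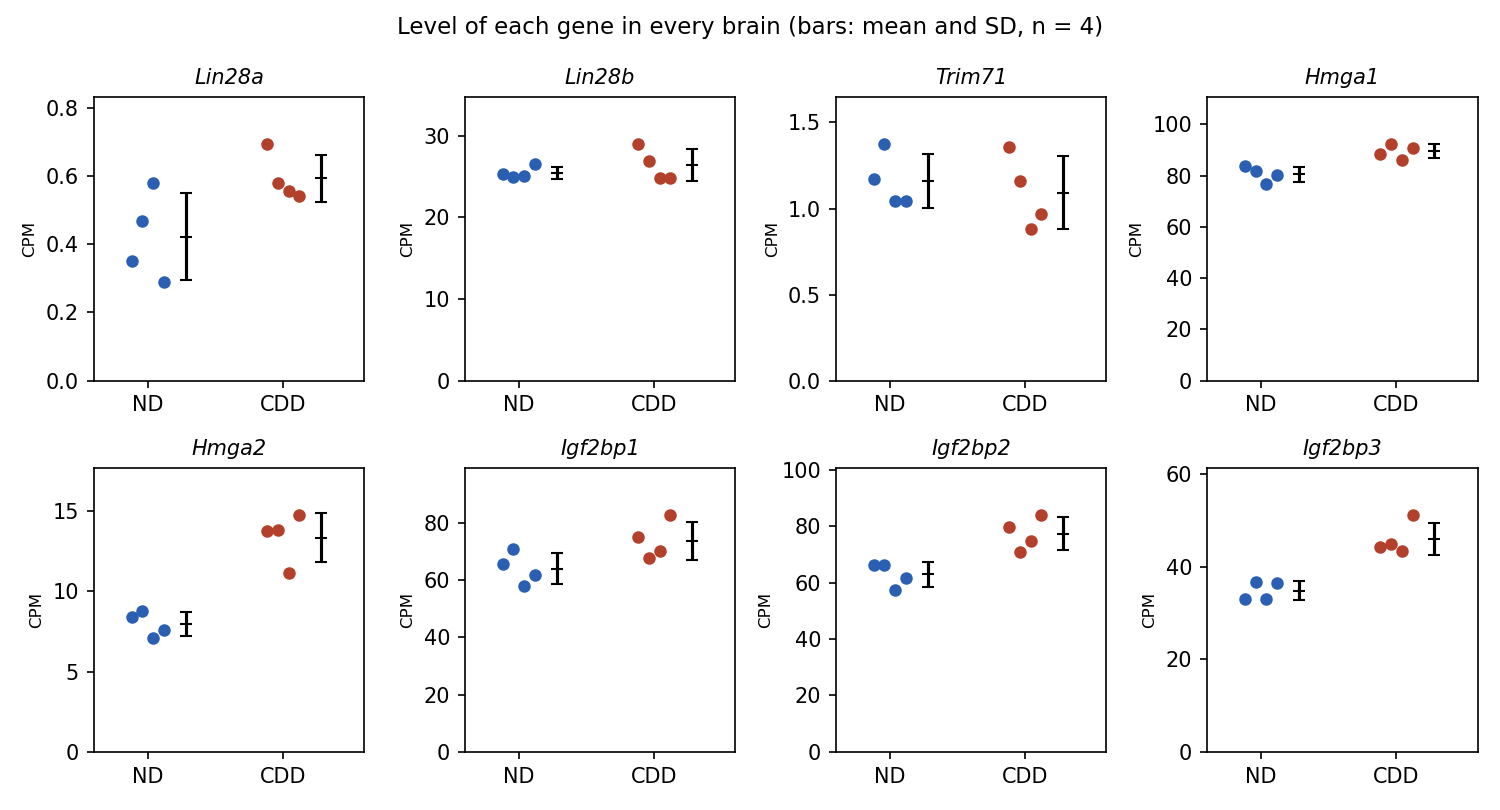
Level of each of the 8 genes in CPM (linear axis from 0) in the 4 ND brains (blue) and the 4 CDD brains (red), with the mean and SD of each diet in black. *Hmga2* shows the widest gap relative to its level, from 8.75 CPM in the highest ND brain to 11.1 CPM in the lowest CDD brain, while *Lin28b* and *Trim71* overlap.

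**Figure D3:**
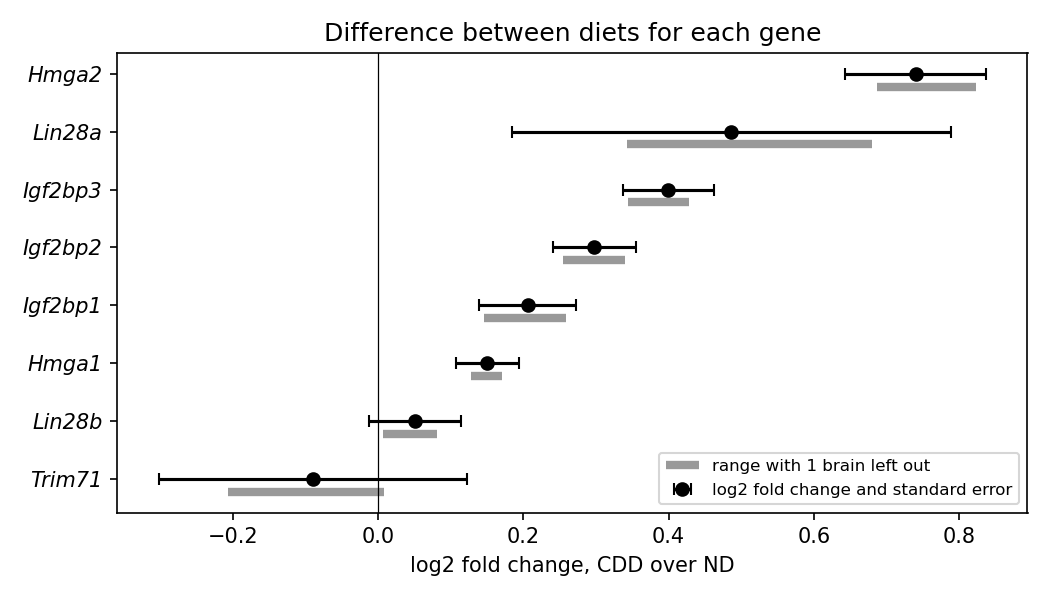
Log2 fold change of CDD over ND for each gene, with its standard error as whiskers and the range over the 8 fits that leave out 1 brain as a grey bar. *Hmga2* is at 0.74, *Igf2bp3* at 0.40 and *Trim71* at -0.09.

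Per gene length, the 8 genes spanned a wide range of levels in the E14.5 brain. *Hmga1* was the highest with a median of 39.8 FPKM over the 8 brains (35.8 to 43.3), above *Igf2bp2* in every brain. *Igf2bp2* (9.21 FPKM), *Igf2bp1* (7.08 FPKM) and *Igf2bp3* (4.89 FPKM) followed. Their ranges over the 8 brains overlapped between neighbours, but in each of the 8 brains *Igf2bp2* was above *Igf2bp1* and *Igf2bp1* above *Igf2bp3*. *Lin28b* (2.76 FPKM) lay below them and above *Hmga2* (1.46 FPKM) without overlap. *Lin28a* (0.138 FPKM) and *Trim71* (0.117 FPKM) were the lowest, with overlapping ranges. *Lin28a* was above *Trim71* in 4 of 4 CDD brains and in 1 of 4 ND brains, at few reads for both genes. *Lin28b* gave 95.2% ± 0.220 of the summed *Lin28* FPKM under CDD and 96.4% ± 1.13 under ND (SD, n = 4).

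The shares within families showed how unequally the paralogs differed between the diets. *Hmga2* made up 4.47% ± 0.412 (SD, n = 4) of the summed *Hmga1* and *Hmga2* FPKM in CDD brains and 3.01% ± 0.186 (SD, n = 4) in ND brains, with no overlap. Among the *Igf2bp* genes, the share of *Igf2bp1* was 32.1% ± 0.430 in CDD and 34.1% ± 0.851 in ND brains (SD, n = 4), with every CDD brain below every ND brain. The share of *Igf2bp3* was 23.8% ± 0.968 and 22.1% ± 1.27, and that of *Igf2bp2* 44.1% ± 0.874 and 43.9% ± 1.01 (SD, n = 4), and both overlapped. The *Lin28a* share of the *Lin28* FPKM overlapped as well. These shares come from the same reads as the fold changes.

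With the mean of each diet subtracted, the genes were compared over the 8 brains in 28 pairs, of which 19 had a positive Pearson r (median 0.33, from -0.44 to 0.95). These correlations are descriptions, since the 8 points share libraries and their scaling. The highest was that of *Igf2bp1* with *Igf2bp2* (r = 0.95), followed by *Hmga1* with *Hmga2* (r = 0.83) and *Hmga2* with *Igf2bp1* (r = 0.74). *Trim71*, at 32 to 45 reads per brain, had an r of 0.63 with *Lin28b* and of 0.63 with *Hmga2*. *Lin28b* had an r of 0.15 with *Hmga2* and of -0.12 with *Igf2bp2*. *Lin28a* was lowest with *Hmga1* (r = -0.44), at few reads.

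A score per brain, the mean over the 8 genes of log2 CPM centred on each gene, was 0.23, 0.13, 0.022 and 0.17 in the CDD brains and -0.14, -0.032, -0.17 and -0.21 in the ND brains. CDD replicate 3 and ND replicate 2 were the nearest brains of the 2 diets. Among 15881 other genes that averaged 1 CPM or more, those whose log2 CPM followed this score most closely over the 8 brains included *Plagl2* (r = 0.99), *Baz2b* (r = 0.98), *Pole* (r = 0.98), *Wwtr1* (r = 0.98), *Nde1* (r = 0.98), *Dhx40* (r = 0.98), *Dhx15* (r = 0.98), *Otx2* (r = 0.97) and *Plekhh1* (r = 0.97). *Plagl2*, a zinc-finger transcription factor gene, was at 48.3 ± 1.55 CPM under CDD and 42.3 ± 1.92 CPM under ND (SD, n = 4). *Nde1*, whose product acts at the centrosome of dividing cells, was at 50.5 ± 1.82 and 41.1 ± 2.08 CPM (SD, n = 4). The genes that ran most opposite to the score included *Lrrtm1* (r = -0.99), *Ank1* (r = -0.99), *Ifngr2* (r = -0.99) and *Elmod1* (r = -0.99). *Lrrtm1*, which encodes a synaptic adhesion protein, was at 28.5 ± 2.11 CPM under CDD and 36.1 ± 2.24 CPM under ND (SD, n = 4). The score itself separates the diets, so genes that do so tend to have a high r. By Spearman's rho, 48 genes reached 0.9762 or more and these held 7 of the 10 genes with the highest Pearson r.

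Markers of cell classes were summed in the same brains, and only the progenitor and endothelial sums did not overlap between the diets. Beside the counts below, 4.24% of all genes were called higher and 4.59% lower. The summed CPM of the 11 progenitor markers was 2028 to 2383 in CDD and 1717 to 1888 in ND brains, with no overlap, and 6 of the 11 were past the threshold, all higher. *Vim* made up 26.7% of that sum. The 10 neuronal markers summed to 6199 to 6858 CPM in CDD and 6320 to 6578 CPM in ND brains, and 2 were past the threshold, both lower. Of the 10 erythroid markers 2 were higher, with sums of 764 to 1426 and 827 to 2995 CPM. These 2, named after their values were seen, were the embryonic globin genes *Hbb-y* and *Hba-x*, and their differences were larger than those of any of the 8 genes. *Hbb-y* was at 140.6 ± 43.7 CPM under CDD and 29.8 ± 3.48 CPM under ND (SD, n = 4), a log2 fold change of 2.24 (edgeR, adjusted p = 0.00651) that was called in 8 of 8 fits with a brain left out. *Hba-x* had one of 1.67 (edgeR, adjusted p = 0.0208) and was called in 6 of 8 such fits, all but those without ND replicates 1 or 4. The adult globin genes *Hba-a1* and *Hbb-bs* had log2 fold changes of -0.64 (standard error 0.43) and -0.84 (standard error 0.45) and did not pass the threshold, so the sum hides members with opposite signs. Endothelial markers were at 227 to 240 CPM in CDD and 243 to 252 CPM in ND brains, without overlap, and 1 of 6 was lower. That gene was *Cldn5* (log2 fold change -0.28), while the log2 fold changes of the others lay between -0.10 and 0.09. Meningeal markers were at 448 to 498 and 475 to 568 CPM, with 1 of 6 higher and 2 lower, and choroid plexus markers at 188 to 505 and 286 to 329 CPM, with 0 of 5 past the threshold in edgeR's test and 3 higher at an unadjusted p-value under 0.05. In whole brains, fewer cells of a type and less RNA per cell cannot be told apart.

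Dividing by the summed progenitor markers of the same brain, a scaling added after the data were seen, changed the order of the diets for some of the 8 genes. *Hmga2* was at 6.12 ± 0.432 per 1000 CPM of progenitor markers in CDD and at 4.49 ± 0.287 in ND brains (SD, n = 4), a ratio of 1.36, and the diets still did not overlap. *Igf2bp3* had a ratio of 1.07 and *Igf2bp2* one of 1.00, both with overlap. *Hmga1* turned to a ratio of 0.906, with every CDD brain below every ND brain. The ratios were 0.941 for *Igf2bp1*, 0.846 for *Lin28b*, 1.15 for *Lin28a* and 0.773 for *Trim71*, all with overlap.

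**Figure D4:**
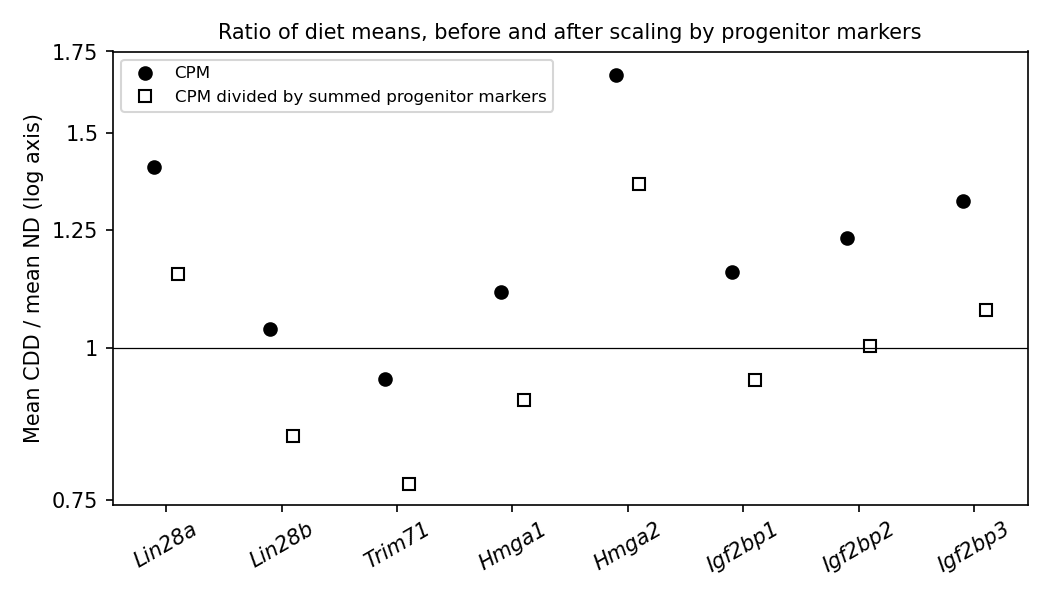
Ratio of the CDD mean to the ND mean for each gene on a log axis, from CPM (filled circles) and from CPM divided by the summed progenitor markers of the same brain (open squares). *Hmga2* is at 1.36 after the division, *Igf2bp2* at 1.00 and *Hmga1* at 0.906.

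The genes that make and load microRNAs were higher in CDD brains in 3 cases and lower in 0, of 20 tested (at an unadjusted p-value under 0.05, 8 and 0, and 0 lower by DESeq2), and their log2 fold changes had a median of 0.08. Over all genes, 4.24% were called higher and 4.59% lower. *Ago1*, an Argonaute gene, rose from 354.7 ± 10.8 CPM in ND to 415.6 ± 31.9 CPM in CDD brains (SD, n = 4), a log2 fold change of 0.23 (edgeR's quasi-likelihood test with Benjamini-Hochberg adjustment, adjusted p = 0.0142). *Xpo5*, which exports precursors from the nucleus, rose by a log2 fold change of 0.13 (edgeR, adjusted p = 0.0347), and *Dicer1*, the enzyme that cuts them, by 0.17 (edgeR, adjusted p = 0.0397). *Drosha*, *Dgcr8*, *Tut4* and *Tut7* had log2 fold changes of 0.10, -0.02, 0.12 and 0.06 and did not pass the threshold. *Tut4* and *Tut7* encode uridylyltransferases through which LIN28A is known to act. Without CDD replicate 2 or ND replicate 2 only 1 gene of the list was called, and without ND replicates 1, 3 or 4 there were 0.

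The let-7 microRNAs themselves were not measured, since mature microRNAs carry no poly-A tail. Of the long transcripts that host let-7 or miR-125, 3 were tested and 0 were called by edgeR or DESeq2, while 2 were higher at an unadjusted p-value under 0.05. *Mir100hg*, host of a let-7 and miR-125 cluster, had 18922 to 25483 reads in the CDD brains and 19297 to 20956 in the ND brains, and its log2 fold change was -0.00 with a standard error of 0.053. *Mir99ahg* had one of 0.27 with a standard error of 0.12, and *Huwe1* one of 0.15. Without CDD replicate 3, 1 of the 3 was called higher.

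Of 28 genes known as let-7 targets, 27 were tested and 10 were higher and 1 lower in CDD brains. *Dicer1*, given above with microRNA processing, is among those that were higher. The share of all genes was 4.24% higher and 4.59% lower. This list, like the others, was written by hand with earlier results of these data known, so nothing is read from its counts. The median of its log2 fold changes was 0.14. *Ccnd1*, which encodes cyclin D1, rose from 48.0 ± 3.12 CPM in ND to 68.0 ± 4.64 CPM in CDD brains (SD, n = 4), with a log2 fold change of 0.50 (edgeR, adjusted p = 0.000403). *Ccnd2*, the cyclin D2 gene, rose from 527.9 ± 30.4 to 694.7 ± 98.6 CPM (SD, n = 4), with a log2 fold change of 0.40 (edgeR, adjusted p = 0.0101). *Tgfbr1*, a TGF-β receptor gene, rose by 0.26 on the log2 scale (edgeR, adjusted p = 0.00659). *Mycn* fell by 0.19 on the log2 scale, from 92.1 ± 1.21 CPM in ND to 80.8 ± 6.01 CPM in CDD brains (SD, n = 4; edgeR, adjusted p = 0.0224). The calls of *Ccnd1*, *Ccnd2* and *Tgfbr1* held in 8 of 8 fits that each omit a brain and that of *Mycn* in 4. The list gave 5, 3 and 4 genes higher without ND replicates 1, 3 and 4. Of the 28 genes 19 held a seed match, as did 6 of the 10 that rose, and *Ccnd1*, *Ccnd2* and *Mycn* held 0 in the transcript used. *Ccnd1* and *Ccnd2* act in the cell cycle, and the progenitor markers given above moved in the same brains. The part of these markers in the list was not tested.

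Across the other protein-coding genes, the number of let-7 seed matches went with small shifts. The median log2 fold change was -0.0082 for 13351 genes with 0 matches, 0.015 for 1364 with 1, 0.050 for 163 with 2 and 0.072 for 23 with 3 or more. Genes with 2 matches were called higher in 15 cases (9.20%) and lower in 5 (3.07%), beside 5.17% and 5.71% of all 14901 genes. Genes with 1 match did not share this imbalance, with 82 higher (6.01%) and 86 lower (6.30%). For 3 or more matches 2 were higher (8.70%) and 1 lower (4.35%), too few genes to judge. Genes with a match followed by an A were called higher in 39 cases (7.32%) and lower in 25 (4.69%). For the 7 genes with 4 or more matches the median was 0.00086, and 0 were called in either direction. Genes with more matches also have longer 3′ UTRs, with a median of 3521 bases for 2 matches and 1061 bases for 0. Among genes with a 3′ UTR of at least 1183 bases, a limit applied after the data were seen, the median was 0.012 for 6175 genes with 0 matches, 0.023 for 1050 with 1, 0.054 for 152 with 2 and 0.073 for 22 with 3 or more. The lengths still differed within this limit, with medians of 2205 bases for 0 matches and 3636 bases for 2. Over all genes with a match, the median level varied between brains of a diet with an SD of 0.0129 on the log2 scale. These shifts are descriptions and were not tested.

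Proteins that act with IGF2BPs on mRNA, and RNAs that IGF2BPs bind, formed a list of 15 genes. Of these 2 were higher, beside 4.24% of all genes, and the median log2 fold change was 0.11. By edgeR 0 were lower, as by DESeq2, and 2 were lower at an unadjusted p-value under 0.05. *Ptbp1*, a splicing repressor of neuronal exons, rose from 119.1 ± 7.99 to 138.3 ± 4.68 CPM (SD, n = 4; log2 fold change 0.22, edgeR, adjusted p = 0.00836). *Dhx9*, an RNA helicase gene, rose by 0.21 on the log2 scale (edgeR, adjusted p = 0.0156). *Igf2* and *H19*, the RNAs classically bound by the family and named here outside the selection rule, had log2 fold changes of -0.28 (standard error 0.11) and -0.13 (standard error 0.084) and did not pass the threshold. Without ND replicate 3 the list gave 0 genes higher, and without ND replicates 1 or 4 it gave 1.

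Genes of early neuroepithelium and of later progenitors were counted as markers of developmental stage. Of the early list 8 genes were tested, 2 were higher and 1 was lower, beside 4.24% and 4.59% of all genes. The median log2 fold change of the list was 0.16. *Sall1*, a zinc-finger gene, rose from 66.5 ± 3.05 to 80.0 ± 6.89 CPM (SD, n = 4; log2 fold change 0.27, edgeR, adjusted p = 0.00681), and *Crabp2*, which encodes a retinoic acid-binding protein, rose by 0.38 on the log2 scale (edgeR, adjusted p = 0.0353). The gene that fell was *Mycn*. *Pou5f1*, *Nanog*, *Tdgf1* and *L1td1* had too few reads to be tested, with at most 11 in any brain. Only 1 gene of the early list was called higher without CDD replicates 1 or 2 or ND replicates 1, 2 or 4, and 0 were called lower without CDD replicate 2 or ND replicates 1, 3 or 4.

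Of 17 genes of later progenitors and glia, 1 was higher and 4 were lower, beside 4.24% and 4.59% of all genes. The median log2 fold change of the list was -0.07. *Tnc*, which encodes the matrix protein tenascin C, fell from 176.9 ± 7.43 to 136.9 ± 9.15 CPM (SD, n = 4), a log2 fold change of -0.37 (edgeR, adjusted p = 0.000671). *Bcan* fell by 0.22 (edgeR, adjusted p = 0.0378), and *Sox9*, a glial and progenitor transcription factor gene, rose by 0.21 (edgeR, adjusted p = 0.0368). *Nfix* also fell (log2 fold change -0.20). The related genes *Nfia*, *Nfib* and *Nfic* of the same list had log2 fold changes of 0.28, 0.10 and -0.01 and did not pass the threshold. *Nfia* was at 140.1 to 189.6 CPM in CDD and 123.5 to 139.7 CPM in ND brains, without overlap. *Tnc* was called in 8 of 8 fits with a brain left out, *Bcan* in 3 and *Sox9* in 2. The list gave 2 genes lower without CDD replicate 1 or ND replicates 2, 3 or 4, and 0 higher without CDD replicates 1 or 2 or ND replicates 1, 3 or 4, but 2 higher without CDD replicate 3 or ND replicate 2.

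Of the other HMG genes and genes tied to HMGA2, 9 were tested, with 1 higher, beside 4.24% of all genes. Their median log2 fold change was 0.08. By edgeR and DESeq2 0 were lower, and 1 was lower at an unadjusted p-value under 0.05. *Hmgb2*, an HMG-box chromatin protein gene of dividing cells, rose from 110.2 ± 7.53 to 126.3 ± 9.50 CPM (SD, n = 4; log2 fold change 0.20, edgeR, adjusted p = 0.0349). *Cdkn2a* and *Cdkn2b*, the cell cycle inhibitor genes that HMGA2 is known to repress, had at most 2 and 10 reads in any brain and were not tested. Without CDD replicates 1 or 4 or ND replicates 1, 3 or 4, 0 of these genes were called higher. Without CDD replicate 3 there were 3, without ND replicate 2 there were 2, and without CDD replicate 1 one gene was called lower.

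**Figure D5:**
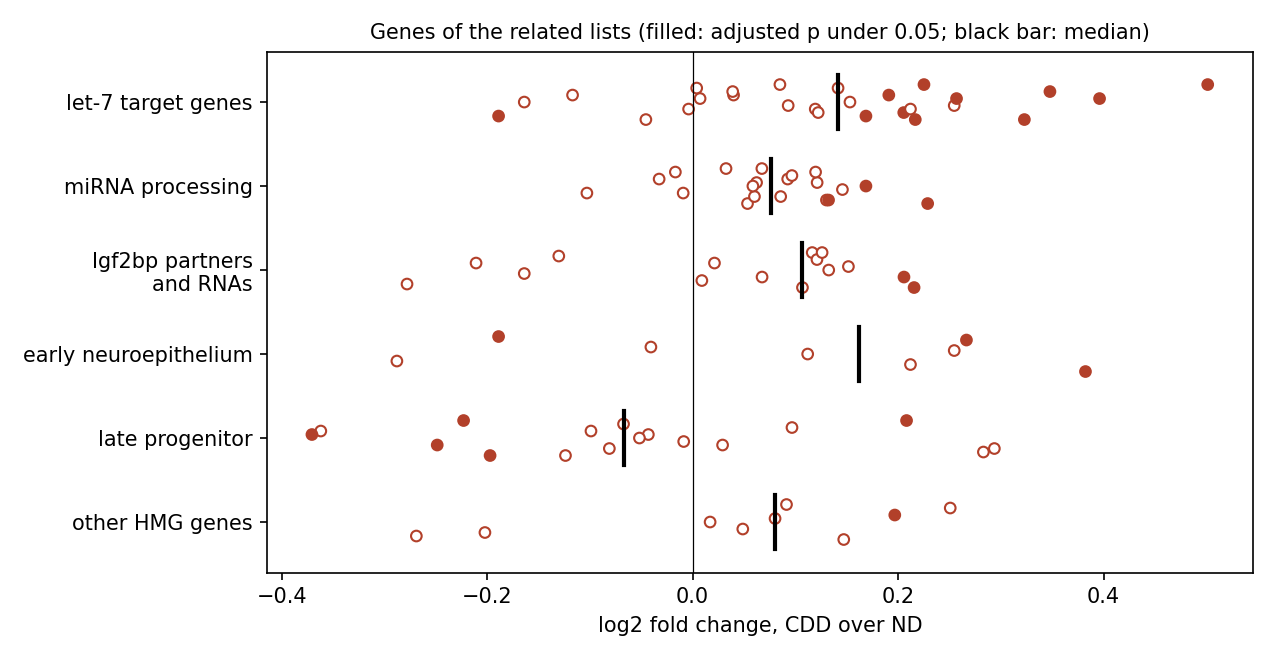
Log2 fold change of CDD over ND for each tested gene of 6 related lists, filled where the adjusted p-value in edgeR's test was under 0.05, with the median of each list as a black bar. The let-7 target list has a median of 0.14 and the later progenitor list one of -0.07.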

How the data were processed

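Groups were taken from the labels of the 8 brains. For every gene and brain, the authors deposited a raw count of reads, a signal (the count divided by a size factor of the library) and FPKM values made from that signal. Their processing notes name HISAT2 2.0.5, featureCounts 1.5.0-p3 and DESeq2 1.20.0, and the genome build is not given in the sources used here. Gene coordinates are those of the authors' table. The deposited columns and 3 shorter tables that hold the authors' own comparison of the diets were not used.

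Counts were filtered with filterByExpr, scaled by TMM and compared with the robust quasi-likelihood test of edgeR 4.0.16 in R 4.3.3, with diet as the single term and a Benjamini-Hochberg adjusted p-value under 0.05 over 19367 genes as the threshold. The test was tried on simulated data. CPM used the scaled library sizes, and log2 CPM a prior count of 2. Tables were made with Python 3.11.15, pandas 2.3.3, NumPy 2.4.6 and SciPy 1.17.1, and figures with matplotlib 3.10.9. Let-7 matches were counted for 14909 of 14989 tested protein-coding genes (99.5%), in the transcript of each gene chosen from GENCODE M21.

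The 8 genes and the lists were chosen with earlier results of these data known, and the lists were written by hand. Some lists share genes, among them *Dicer1*, *Mycn* and *Slc1a3*, so their counts are not separate. Of the 22 symbols of the microRNA processing list, *Zcchc11* and *Zcchc6* are older names of *Tut4* and *Tut7*. *Mirlet7bhg*, *Dppa4* and *Utf1* were not found. Named are the 8 genes, up to 3 called genes per list and direction with the smallest p-values, the 10 genes most like the score of the 8 and the 5 most opposite, of which 3 in all are left out of the text. Other genes were named after their values were seen. Alternatives were RLE and upper-quartile scaling, DESeq2 1.42.0, no filter, the replicate number as a block, each brain left out, Spearman's rho, seed matches followed by an A and, added later, scaling by progenitor markers and a minimum length of the 3′ UTR. Library depth was 31770217 to 43121170 counts. P-values measure the spread between these brains only.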

Additional observations from a re-analysis of the deposited data

Results flagged for a closer look

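The summed caudal Hox markers, on the scale of log2(CPM + 1), were at 6.57 in CDD replicate 2 and between 0 and 0.3121 in the other CDD brains, a sample far from the others of its diet. Its gap to the nearest of these brains was 0.952 of the range. Of 30 groups examined in this way, chance would mark about 1.5.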

How the results depend on the processing

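Under DESeq2, RLE or upper-quartile scaling, no filter on low counts and the replicate block, *Hmga1*, *Hmga2*, *Igf2bp2* and *Igf2bp3* kept their direction and were past the threshold, and *Igf2bp1* passed it with DESeq2 and without the filter. After division by progenitor markers the ratio of *Hmga1* reversed to 0.906. Those of *Igf2bp1* and *Lin28b* went from 1.15 and 1.04 to 0.941 and 0.846. *Igf2bp2* (1.00) and *Igf2bp3* (1.07) then overlapped between the diets, and *Hmga2* (1.36) did not. With a brain left out, 3 to 4 of the 8 genes were past the threshold, and 204 to 1222 genes were called higher and 267 to 1273 lower over all genes (471 in all without ND replicate 3, 2495 without CDD replicate 3). The cause of these shifts was not tested. In the same fits the lists gave, higher and lower, 0 to 4 and 0 for microRNA processing, 3 to 11 and 0 to 1 for let-7 targets, 0 to 1 and 0 for host transcripts, 0 to 3 and 0 to 1 for IGF2BP partners, 1 to 2 and 0 to 1 for early neuroepithelium, 0 to 2 and 2 to 4 for later progenitors, and 0 to 3 and 0 to 1 for other HMG genes. DESeq2 called 4 IGF2BP partners, 3 later progenitor genes and 3 HMG genes higher, and RLE scaling 2 HMG genes. Without the filter, 2 host transcripts, 3 later progenitor genes and 3 HMG genes were higher, and 1 IGF2BP partner and 1 HMG gene lower. The causes were not tested. Genes with a seed match followed by an A had a median log2 fold change of 0.043, against 0.018 for any match and 0.026 for any match in a 3′ UTR of at least 1183 bases.

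Same-numbered brains deviated from their diet means with correlations of 0.105, -0.133, 0.117 and 0.232, so the numbers were not taken to pair the brains. With the replicate number as a block, 1812 genes were called (842 higher and 970 lower), 4 of the 8 genes stayed past the threshold, and 3 later progenitor genes and 3 HMG genes were higher. No other list count moved by more than 1.5 times under the block. Depth limits *Lin28a* and *Trim71*, at 10 to 45 reads per brain.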
